A study of Mus musculus with 20 samples.

Results

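The subject was the nuclear-encoded subunits of respiratory complexes II, III, IV and V in mouse liver, 44 genes of 19057 named on the array, read by 68 of its 45281 probes. Members were all probes that the platform annotation names Sdha, Sdhb, Sdhc, Sdhd or Cyc1, or whose symbol begins with Uqcr, Cox4, Cox5, Cox6, Cox7, Cox8 or Atp5. After a filter on dim probes (detected in at least 5 of 20 livers) 48 probes for 36 genes were kept, of 15096 probes kept in all. By complex, 5 of 7 probes were kept for complex II, 8 of 11 for complex III, 13 of 21 for complex IV and 22 of 29 for complex V.

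Complex II (succinate dehydrogenase) passes electrons from succinate to coenzyme Q, complex III passes them from coenzyme Q to cytochrome c, and complex IV (cytochrome c oxidase) passes them to oxygen. The proton gradient that complexes III and IV help to build is spent by complex V (ATP synthase) to make ATP. Several subunits of complex IV exist as tissue isoforms, and the liver normally uses the isoforms common to most tissues, whereas heart and muscle carry forms of their own.

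The 20 livers came from female mice, 5 per group, with 1 Illumina Mouse WG-6 v2.0 array per mouse. The groups were untreated B6.Pdss2(kd/kd) missense mutants (129 to 143 days old), the same mutants fed probucol, a lipid-lowering antioxidant, at an estimated 95 mg per kg per day (140 to 145 days), the same mutants given CoQ10 at an estimated 400 mg per kg per day (153 to 156 days), and untreated B6 wild-type mice (215 to 217 days). Pdss2 encodes a subunit of the enzyme that makes the side chain of coenzyme Q. The kd allele came onto the B6 background on a recombinant chromosome, and all 3 mutant groups are homozygous for it in every tissue. Supplements were lifelong, per the series' design text, and wild-type mice received none. Genotype and age cannot be told apart in any comparison with wild type, nor can CoQ10 and age among the mutants. No probe was named Pdss2, so the genotype could not be checked on its own transcript.

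For the 10 untreated and probucol livers, 2 label fields conflict: the treatment field of each names 1 of these groups and the prefix of its array name the other. Groups follow the treatment field, and with the array names instead the untreated and probucol values below change places while CoQ10 and wild type keep theirs. In the labels, urine albumin goes with the treatment field: it was 13.52 to 57.34 mg per 24 h in mutants labelled untreated, 0.84 to 1.86 in those labelled probucol and 0.14 to 0.2 in wild type, and was not done for CoQ10. Albumin and treatment stand in the same sample labels, so albumin cannot tell whether the arrays of these 2 groups were exchanged. Of 10 hepatocyte marker genes, 8 were detected in all 20 arrays, albumin and transthyretin among them, and Tat was detected in none and Fgb in 1. Arrays detected 12268 to 15003 probes. The number in the array name, 1 to 4, moved with this (medians of 12519, 12910, 14414 and 13967 detected probes), and each number was carried by 5 arrays and all 4 groups.

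Differences below are on the log2 scale of normalised intensity, with the standard error of a limma fit of 15096 probes and adjusted p-values after Benjamini-Hochberg correction over all of them. A probe counted as called at an adjusted p under 0.05. The 3 comparisons with wild type share the same 5 wild-type livers, so their values are given side by side and are not independent of each other.

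Most subunits of all 4 complexes lay somewhat above wild type in each mutant group, by amounts that the fit did not call except for Cox7a1 under CoQ10. Of the 48 probes, 43 were above wild type in untreated mutants, 38 in probucol-labelled mutants and 37 in CoQ10-labelled mutants, whereas 49.5%, 47.9% and 49.1% of all kept probes were. The median member difference was 0.17, 0.14 and 0.20 in the same order, while the medians of all kept probes lay within 0.01 of 0 (-0.002, -0.010 and -0.005). In bulk liver, fewer cells of a type and less RNA per cell cannot be told apart, and this holds for every difference below.

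For untreated mutants 0 member probes were called against wild type, with 11 above and 0 below wild type at an unadjusted p under 0.05. In that comparison 0.119% of all kept probes were called, and 2.77% were higher and 2.73% lower at an unadjusted p under 0.05. Probucol-labelled mutants likewise had 0 called members against 0.709% of all probes, and 7 above and 0 below at an unadjusted p under 0.05, where 6.17% of all probes were higher and 6.13% lower. CoQ10-labelled mutants had 1 called member, Cox7a1, against 0.437% of all probes. Under CoQ10, 21 members were above and 4 below wild type at an unadjusted p under 0.05, where 7.32% of all probes were higher and 5.98% lower.

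Separation of all 5 livers from all 5 wild-type livers gave a like picture. In untreated mutants 3 member probes lay wholly above wild type (0.749% of all probes did), of Cox7b, Atp5l and Atp5mpl, and 0 wholly below (0.808% of all probes). In probucol-labelled mutants 3 did (1.37% of all probes), of Cox7a2, Cox7b and Atp5md, and 0 lay wholly below (1.76% of all probes). In CoQ10-labelled mutants 13 lay wholly above (2.75% of all probes) and 2, of Uqcrq and Cox6a1, wholly below (1.86% of all probes).

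By complex, the median difference from wild type was largest in complex II under CoQ10. Complex II medians were 0.20 in untreated, 0.17 in probucol-labelled and 0.33 in CoQ10-labelled mutants. Complex III gave 0.17, 0.13 and 0.15 in the same order of groups, complex IV 0.17, 0.13 and 0.12, and complex V 0.16, 0.12 and 0.22. With median scaling the probucol medians of complexes III, IV and V were 0.30, 0.28 and 0.27. That scaling equalises the median of all probes on the array, kept or not. A shift shared by the kept probes could therefore stay in these and all other median-scaled values below. Leaving out 1 liver moved the complex IV median under CoQ10 to 0.03 (without CoQ10 replicate 4), 0.05 (without replicate 3) or 0.21 (without replicate 2 or 5). The kept members are not a sample of all 68, since a probe passed only where at least 5 livers detected it.

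**Figure D1:**
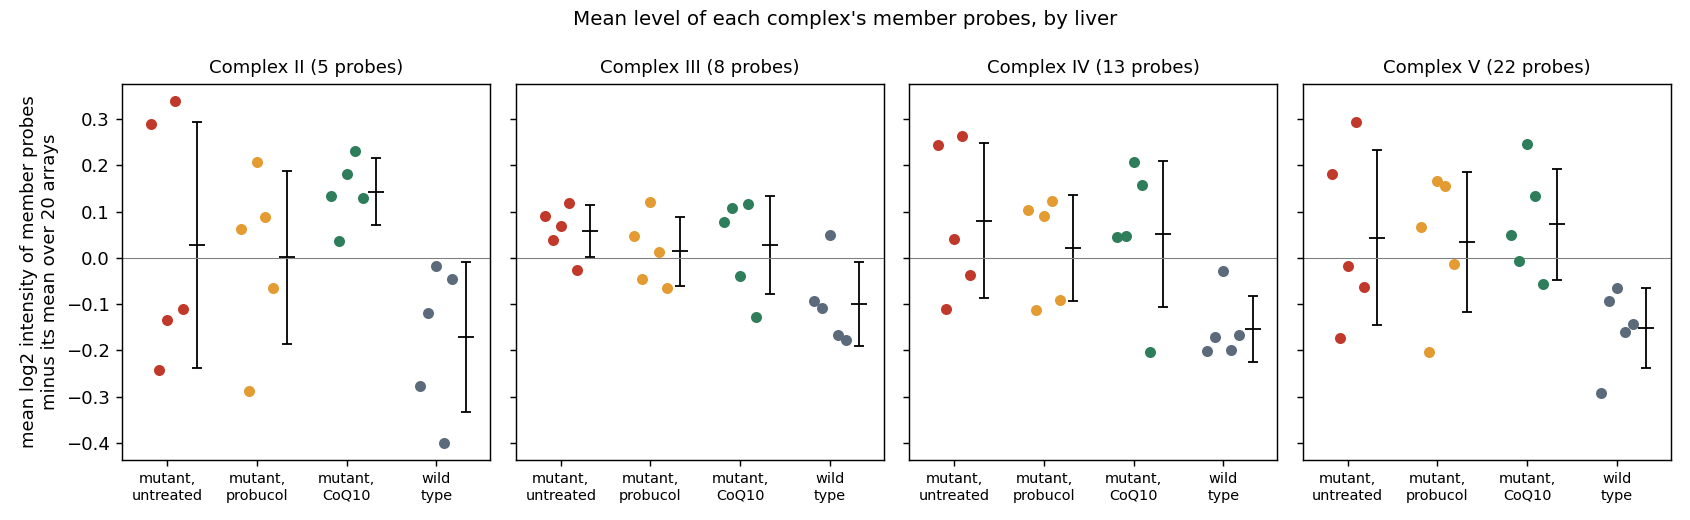
Mean log2 intensity of the kept probes of each complex in each liver, minus the mean over the 20 arrays, in 4 panels for complexes II (5 probes), III (8), IV (13) and V (22). Points are livers, and bars show the group mean ± SD (n = 5). CoQ10-labelled livers lie between 0.04 and 0.23 for complex II, all above the wild-type livers at -0.40 to -0.02, whereas untreated livers spread from -0.24 to 0.34.

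The mean over all 48 probes spread more widely among the livers of each mutant group than among wild-type livers. That level, relative to the 20-array mean, was 0.05 ± 0.17 in untreated mutants, 0.02 ± 0.13 in probucol-labelled mutants, 0.07 ± 0.11 in CoQ10-labelled mutants and -0.15 ± 0.08 in wild type (SD, n = 5 each). Untreated replicates 1 and 4 were the 2 highest of that group at 0.19 and 0.26, and untreated replicate 2, at -0.13, lay within the wild-type range of -0.23 to -0.03. Within the untreated group the same 2 livers were the highest in each of the complexes, as the plot of complex means shows. The median SD over single member probes was 0.22, 0.17, 0.21 and 0.14 in untreated, probucol-labelled, CoQ10-labelled and wild-type livers, against 0.25, 0.25, 0.25 and 0.21 over all kept probes.

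Within the 4 array numbers the differences from wild type were uneven. For untreated mutants over wild type, complex V medians were 0.34, 0.00, 0.45 and 0.09 in arrays numbered 1 to 4, and complex II medians were 0.54, -0.22, 0.82 and -0.06. CoQ10-labelled mutants gave positive medians in each number, from 0.04 to 0.77 for complex II, 0.03 to 0.16 for complex III, 0.01 to 0.41 for complex IV and 0.14 to 0.33 for complex V. Each number holds 1 or 2 livers per group, so these values carry no test. With array number as a fixed block, 8 member probes were called for CoQ10 over wild type (316 of 15096 probes in all), all of them higher: Cox7a1, Cox7b, Uqcr11, Atp5e, Atp5h, Atp5md and 2 of Atp5l.

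In complex II, all 3 probes of Sdhb, the iron-sulfur subunit that carries electrons within the complex, lay above wild type under CoQ10. The Sdhb probe of largest difference read 11.93, 11.15, 11.38, 12.27 and 11.49 in untreated mutants, 11.86, 10.87, 12.03, 11.74 and 11.50 in probucol-labelled mutants, 11.78, 11.68, 11.89, 12.08 and 11.999 in CoQ10-labelled mutants, against 11.07, 11.34, 11.53, 10.96 and 11.56 in wild type. All 5 CoQ10-labelled livers were above all wild-type livers, while the untreated and probucol groups straddled them. The differences under CoQ10 were 0.60 ± 0.21, 0.41 ± 0.18 and 0.33 ± 0.12 for the 3 Sdhb probes, with adjusted p of 0.194, 0.316 and 0.220. In untreated mutants the same probes gave 0.35, 0.20 and 0.16 and in probucol-labelled mutants 0.31, 0.15 and 0.17.

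Sdhd, a membrane anchor of complex II, read 10.50, 9.73, 9.94, 10.49 and 9.72 in untreated mutants, 9.95, 10.04, 10.28, 10.28 and 10.04 in probucol-labelled mutants, 10.11, 9.92, 10.43, 10.06 and 10.17 in CoQ10-labelled mutants, against 9.67, 10.002, 9.79, 9.67 and 9.90 in wild type. Each mutant group overlapped wild type, the treated groups through 1 liver each, at 9.95 under probucol and 9.92 under CoQ10. Differences were 0.27, 0.31 and 0.33 (each ± 0.15) in untreated, probucol-labelled and CoQ10-labelled mutants, with adjusted p of 0.964, 0.412 and 0.344. Sdhc, the other membrane anchor, which helps to form the coenzyme Q site, differed by 0.01, -0.07 and -0.10, with a 95% interval of -0.34 to 0.14 under CoQ10. Sdha, the flavoprotein that oxidises succinate, had 1 probe, detected in 0 of 20 arrays, so the main catalytic subunit was not measured.

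The largest differences in complex III were in small accessory subunits, foremost Uqcr11. This subunit read 14.70, 14.32, 14.27, 14.58 and 14.17 in untreated mutants, 14.58, 14.27, 14.59, 14.45 and 14.05 in probucol-labelled mutants, 14.38, 14.76, 14.56, 14.59 and 14.29 in CoQ10-labelled mutants, against 14.06, 13.80, 14.17, 13.86 and 13.97 in wild type. CoQ10-labelled livers lay wholly above wild type, the lowest untreated liver lay at the level of the highest wild-type liver, and 1 probucol-labelled liver lay among them. The differences were 0.44, 0.42 and 0.54 (each ± 0.13) with adjusted p of 0.427, 0.171 and 0.0683, so Uqcr11 was the nearest of the complex to a call without reaching one. Uqcrh, the hinge protein that helps cytochrome c1 meet cytochrome c, gave 0.30, 0.27 and 0.34 (each ± 0.15), and the 2 probes of Uqcr10 gave between 0.16 and 0.20 in each mutant group.

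Uqcrq, another small subunit, went the other way under CoQ10. Its kept probe read 7.02, 7.46, 7.62, 7.72 and 7.49 in untreated mutants, 7.34, 7.61, 7.16, 7.51 and 7.62 in probucol-labelled mutants, 7.37, 7.35, 6.92, 7.29 and 7.20 in CoQ10-labelled mutants, against 7.63, 7.60, 7.74, 7.41 and 7.42 in wild type. All CoQ10-labelled livers were below all wild-type livers, by -0.33 ± 0.13 (adjusted p = 0.275). The second Uqcrq probe was detected in 0 arrays and gives no cross-check.

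Of the larger subunits of complex III, Uqcrc1 and Cyc1 had smaller differences than Uqcrc2. Uqcrc1 and Uqcrc2 are the core proteins that face the matrix: Uqcrc1 differed by 0.01, -0.05 and 0.00 in untreated, probucol-labelled and CoQ10-labelled mutants (95% interval -0.26 to 0.26 under CoQ10). Uqcrc2 differed by 0.17, 0.10 and 0.13 (each ± 0.09), and its CoQ10-labelled livers, at 13.72 to 13.78, were all above the wild-type livers at 13.54 to 13.67. Cytochrome c1 (Cyc1), the heme subunit that hands electrons to cytochrome c, gave 0.09, -0.04 and -0.04, with a 95% interval of -0.27 to 0.18 under CoQ10. Both probes of the Rieske protein Uqcrfs1 were detected in 0 arrays.

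In complex IV, Cox7a1 rose under CoQ10 and was the only member probe called in any of the 6 comparisons. Cox7a1 is the heart and muscle isoform of subunit 7a, and Cox7a2 is the isoform that liver and most tissues use. Cox7a1 read 8.56, 7.46, 8.03, 7.85 and 7.76 in untreated mutants, 8.93, 7.86, 7.89, 8.58 and 7.54 in probucol-labelled mutants, 9.17, 8.82, 8.30, 8.57 and 8.12 in CoQ10-labelled mutants, against 7.46, 7.14, 7.93, 7.15 and 7.44 in wild type. Every CoQ10-labelled liver was above every wild-type liver, while each of the other mutant groups overlapped wild type.

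Under CoQ10 the Cox7a1 difference from wild type was 1.17 ± 0.25 (95% interval 0.65 to 1.70, 2.26-fold, adjusted p = 0.0425). The probe was dim, at raw intensities of 379.2 to 681.2 in CoQ10-labelled and 310.5 to 476.9 in wild-type livers, and with no background correction the difference was 0.67 (adjusted p = 0.0459). In probucol-labelled mutants it was 0.74 ± 0.25 (adjusted p = 0.210) and in untreated mutants 0.51 ± 0.25 (adjusted p = 0.919). Against untreated mutants the CoQ10 group differed by 0.66 ± 0.25 (adjusted p = 0.380), so a difference between CoQ10-labelled and untreated livers was not called. The call rests on a narrow margin: without any 1 liver of either group the difference ran from 1.03 to 1.30 and the adjusted p from 0.0391 to 0.129, and the call remained only without CoQ10 replicate 5 (0.0395) or wild-type replicate 3 (0.0391). It was also lost with the authors' log2 values (0.66, adjusted p = 0.0521), with median scaling (1.12, adjusted p = 0.120) and with no filter on dim probes (adjusted p = 0.105). Within array numbers 1 to 4 the CoQ10 difference was 1.87, 0.90, 1.14 and 0.91. Of 12 skeletal and heart muscle marker genes, 10 were detected in 0 arrays. Mb, detected in 17 arrays, and Des, which stellate cells of the liver also express, in all 20, were not called in any comparison. The mean level of this list was highest in untreated replicate 1 (0.29), probucol replicate 1 (0.31) and wild-type replicate 3 (0.12). Each of these livers also had the highest Cox7a1 of its group. Under CoQ10 it was highest in replicate 2 (0.71), whereas Cox7a1 was highest in replicate 1 (0.12 for the list). The part of muscle RNA in the Cox7a1 difference was not tested.

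Cox7a2 read 10.33, 9.67, 9.81, 10.28 and 9.43 in untreated mutants, 9.76, 9.80, 9.73, 9.97 and 9.72 in probucol-labelled mutants, 9.69, 10.01, 10.27, 9.99 and 9.69 in CoQ10-labelled mutants, against 9.36, 9.40, 9.61, 9.54 and 9.48 in wild type. Both treated groups lay wholly above wild type, and 1 untreated liver lay within its range. The differences were 0.42, 0.32 and 0.45 (each ± 0.15), with adjusted p of 0.616, 0.411 and 0.175. Intensities of the Cox7a1 and Cox7a2 probes say nothing of which isoform was more abundant, since probes differ in response. The stretch before the start of each gene is shown because this isoform pair holds the only called member, and neither stretch holds any of the 5 motifs searched.
Cox7a1: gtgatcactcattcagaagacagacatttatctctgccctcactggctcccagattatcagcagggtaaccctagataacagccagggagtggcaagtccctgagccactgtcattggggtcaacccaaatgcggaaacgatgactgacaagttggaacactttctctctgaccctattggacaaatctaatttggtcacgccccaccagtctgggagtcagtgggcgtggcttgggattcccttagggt
Cox7a2: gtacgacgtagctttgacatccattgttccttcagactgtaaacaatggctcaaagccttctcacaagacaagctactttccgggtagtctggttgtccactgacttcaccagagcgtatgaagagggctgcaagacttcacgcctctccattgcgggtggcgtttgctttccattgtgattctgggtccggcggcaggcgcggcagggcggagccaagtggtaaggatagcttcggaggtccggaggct
The first is chr7:30183921-30184170 on the plus strand and the second chr9:79759854-79760103 on the minus strand of GRCm38.p6, each the 250 bases before the RefSeq start, read 5′ to 3′ in the direction of the gene. Cox7a1 had 51.2% G and C and 4 CpG pairs, Cox7a2 54.8% and 14 CpG pairs, and the medians over 32851 RefSeq promoters were 52.4% and 6.

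Cox7b, a small subunit of complex IV, was the only member probe whose livers lay wholly above wild type in all 3 mutant groups. It read 9.61, 8.93, 9.08, 9.28 and 8.77 in untreated mutants, 9.24, 8.77, 8.92, 9.13 and 8.93 in probucol-labelled mutants, 9.06, 8.98, 9.67, 8.89 and 8.93 in CoQ10-labelled mutants, against 8.74, 8.59, 8.63, 8.45 and 8.65 in wild type. The gap between the lowest mutant liver, at 8.77, and the highest wild-type liver was small. Differences were 0.52, 0.38 and 0.49 (each ± 0.16) with adjusted p of 0.426, 0.312 and 0.153.

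Cox6a1, the isoform of subunit 6a used by liver, differed from most members in its direction under CoQ10. Its brighter probe read 14.29, 14.33, 14.46, 14.45 and 14.36 in untreated mutants, 14.16, 14.29, 14.33, 14.29 and 14.32 in probucol-labelled mutants, 14.03, 14.19, 14.15, 14.16 and 13.72 in CoQ10-labelled mutants, against 14.21, 14.26, 14.52, 14.25 and 14.20 in wild type. CoQ10-labelled livers were all below the untreated mutants and below wild type, the highest of them at 14.19 next to the lowest wild-type liver at 14.20. This probe differed by -0.24 ± 0.10 from wild type (adjusted p = 0.316) and by -0.32 ± 0.10 from untreated mutants (adjusted p = 0.270). The second Cox6a1 probe gave -0.27 ± 0.12 (adjusted p = 0.303) and -0.33 ± 0.12 (adjusted p = 0.337) in the same comparisons. Over CoQ10-labelled mutants, probucol-labelled mutants differed by 0.23 and 0.29 on the 2 probes (adjusted p of 0.459 and 0.381).

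The other subunits of complex IV differed less. Cox4i1, the common isoform of regulatory subunit 4, gave 0.34 ± 0.13 under CoQ10 (adjusted p = 0.240), with all 5 livers at 14.26 to 14.50 above wild type at 13.76 to 14.23. Cox6c gave 0.29 ± 0.12 in untreated mutants (adjusted p = 0.745). Cox5b, on the matrix side, gave 0.22 ± 0.10 on 1 probe in both untreated and CoQ10-labelled mutants (adjusted p of 0.824 and 0.320), and Cox5a gave 0.11, 0.01 and 0.02. For Cox6b1 under CoQ10, the 2 probes gave 0.03 and -0.01, with 95% intervals of -0.21 to 0.28 and -0.26 to 0.23. Cox7a2l, which the rule takes in by its name and which assembles complexes III and IV into a supercomplex, gave 0.11, 0.16 and 0.10 (each ± 0.23).

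Tissue isoforms of complex IV other than Cox7a1 were at or near the detection limit. The heart and muscle forms Cox6a2 and Cox8b and the testis forms Cox6b2, Cox7b2 and Cox8c were detected in 0 of 20 arrays. Cox4i2, the lung form of subunit 4, was detected in 3.

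**Figure D2:**
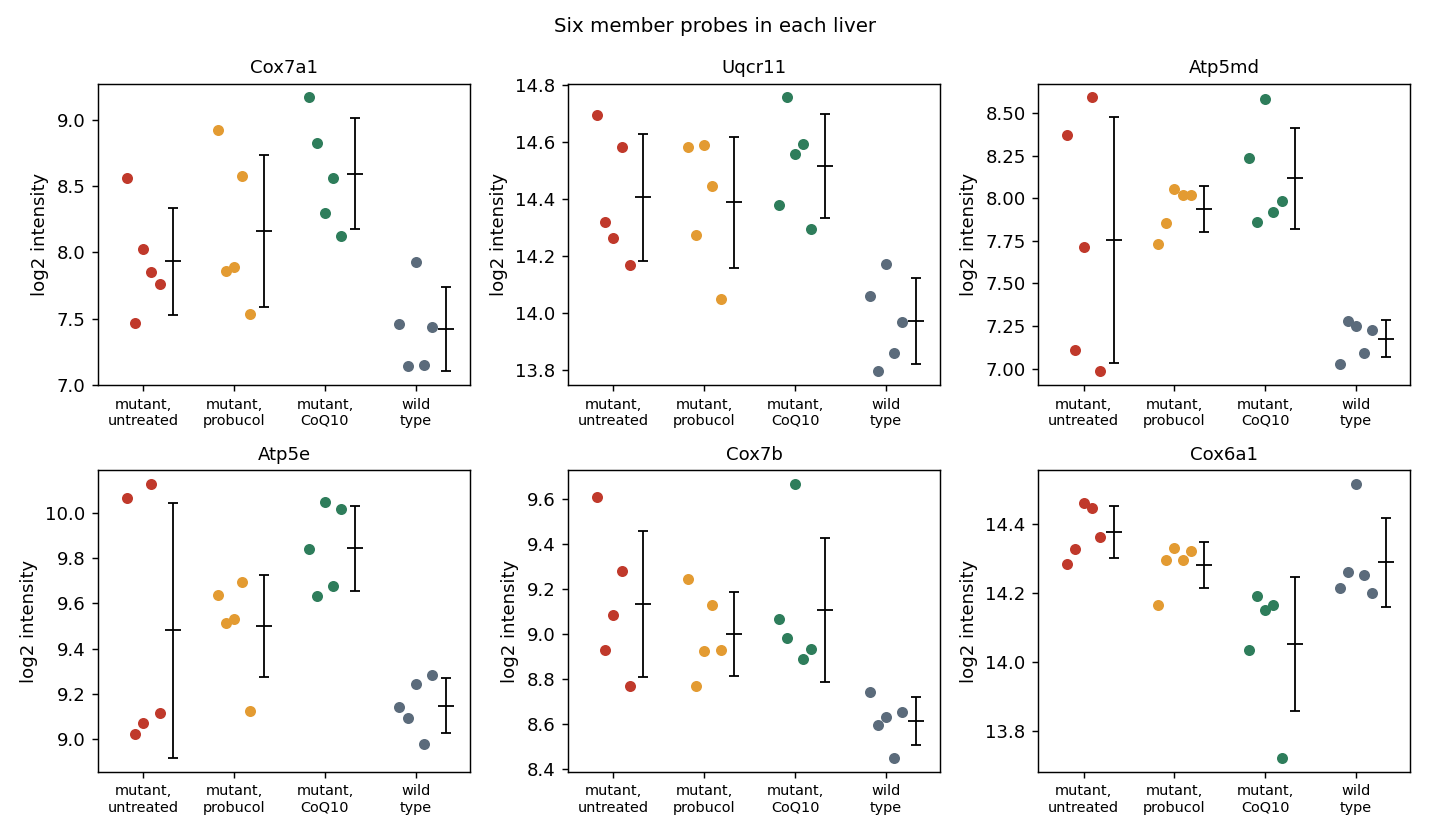
Normalised log2 intensity in each of the 20 livers for Cox7a1, Uqcr11, Atp5md, Atp5e, Cox7b and Cox6a1 (brighter probe), 1 panel per gene. Points are livers, and bars give the mean ± SD of each group (n = 5). The CoQ10-labelled livers lie wholly above wild type for the first 5 genes and wholly below it for Cox6a1.

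In complex V the largest median difference was in the small subunits of the membrane part that lie at the interface between ATP synthase monomers. The 7 kept probes of Atp5j2, Atp5k, Atp5l, Atp5md and Atp5mpl had median differences of 0.41, 0.41 and 0.47 in untreated, probucol-labelled and CoQ10-labelled mutants. The 5 probes of the catalytic F1 head gave 0.17, 0.08 and 0.17, the 8 probes of the peripheral stalk 0.12, 0.12 and 0.10, and the 2 probes of the rotor ring of c subunits 0.03, 0.06 and 0.02. These groups were compared as counts and medians with no test between them.

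Atp5md, known as DAPIT, helps ATP synthase dimers to pair. In untreated mutants its difference was matched by that of Atp5k, whose kept probe was near the detection limit. Atp5md had the largest difference of the complex in the probucol-labelled and CoQ10-labelled groups. It read 8.37, 7.11, 7.72, 8.59 and 6.98 in untreated mutants, 7.73, 7.86, 8.06, 8.02 and 8.02 in probucol-labelled mutants, 8.24, 7.86, 8.58, 7.92 and 7.99 in CoQ10-labelled mutants, against 7.03, 7.28, 7.25, 7.09 and 7.23 in wild type. Both treated groups lay wholly above wild type, whereas 2 untreated livers lay within or below the wild-type range. Differences were 0.58, 0.76 and 0.94 (each ± 0.23), or 1.49-fold, 1.70-fold and 1.92-fold, with adjusted p of 0.745, 0.152 and 0.0736. The probe was dim, at raw intensities of 360.8 to 584.3 in CoQ10-labelled and 276.5 to 382.1 in wild-type livers. These folds are after background correction, and the difference without it is not given here. The second Atp5md probe was detected in 0 arrays.

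Atp5l, subunit g, had 2 kept probes that moved alike. The one of larger difference read 12.26, 11.41, 11.62, 12.48 and 11.70 in untreated mutants, 12.21, 11.38, 12.41, 12.37 and 11.71 in probucol-labelled mutants, 12.10, 11.81, 12.43, 12.40 and 12.24 in CoQ10-labelled mutants, against 11.36, 11.44, 11.49, 11.55 and 11.40 in wild type. CoQ10-labelled livers lay wholly above wild type, and 1 liver of each other mutant group fell within its range. Differences were 0.45, 0.57 and 0.75 (each ± 0.21; adjusted p of 0.873, 0.233 and 0.102) on this probe and 0.41, 0.41 and 0.47 (each ± 0.15; adjusted p of 0.701, 0.260 and 0.166) on the other. Atp5k, subunit e, gave 0.58, 0.50 and 0.54 (each ± 0.22), with adjusted p of 0.666, 0.349 and 0.259. Its kept probe was near the detection limit, at raw intensities of 221 to 359.1. It was detected in 4 untreated, 4 probucol-labelled, 5 CoQ10-labelled and 3 wild-type livers. The wild-type values of Atp5k thus lay partly below detection, and its second probe was detected in 0 arrays. Atp5mpl disagreed between its probes, at 0.26, 0.15 and 0.28 on the bright probe and -0.09, -0.06 and -0.08 on the dim one.

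In the F1 head, Atp5e, the epsilon subunit of the central stalk, had the lowest p of the head's subunits under CoQ10. It read 10.07, 9.02, 9.07, 10.13 and 9.11 in untreated mutants, 9.64, 9.51, 9.53, 9.69 and 9.12 in probucol-labelled mutants, 9.84, 9.63, 10.05, 9.68 and 10.02 in CoQ10-labelled mutants, against 9.14, 9.09, 9.24, 8.98 and 9.28 in wild type. Untreated livers fell into 2 near 10 and 3 at the wild-type level, and only the CoQ10 group lay wholly above wild type. Differences were 0.33, 0.35 and 0.70 (each ± 0.19), with adjusted p of 0.971, 0.488 and 0.106. Atp5a1, the alpha subunit, gave 0.31, 0.25 and 0.33 (adjusted p of 0.914, 0.548 and 0.346). Atp5b, the beta subunit that holds the catalytic sites, gave -0.00, -0.02 and 0.00, with a 95% interval of -0.20 to 0.20 under CoQ10. Atp5g3 and Atp5b had the highest raw intensities of all member probes, up to 62891.8 and 60911, and whether such bright probes could still show a difference was not tested.

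In the peripheral stalk, Atp5h (subunit d) and Atp5j (coupling factor 6) had opposite signs under CoQ10. Atp5h read 12.57, 12.62, 12.66, 12.58 and 12.43 in CoQ10-labelled mutants, against 12.24, 12.07, 12.04, 12.01 and 12.16 in wild type, with no overlap and a difference of 0.47 ± 0.14 (adjusted p = 0.143). In untreated and probucol-labelled mutants Atp5h gave 0.35 and 0.26. The 2 kept Atp5j probes gave -0.39 ± 0.17 (adjusted p = 0.325) and -0.23 ± 0.13 (adjusted p = 0.481) under CoQ10, with overlapping groups, and -0.09 and 0.04 in untreated mutants. Atp5o, which joins the stalk to F1, gave 0.23 and 0.29 on 2 probes under CoQ10, and the 3 probes of Atp5pb ranged from -0.04 to 0.28.

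**Figure D3:**
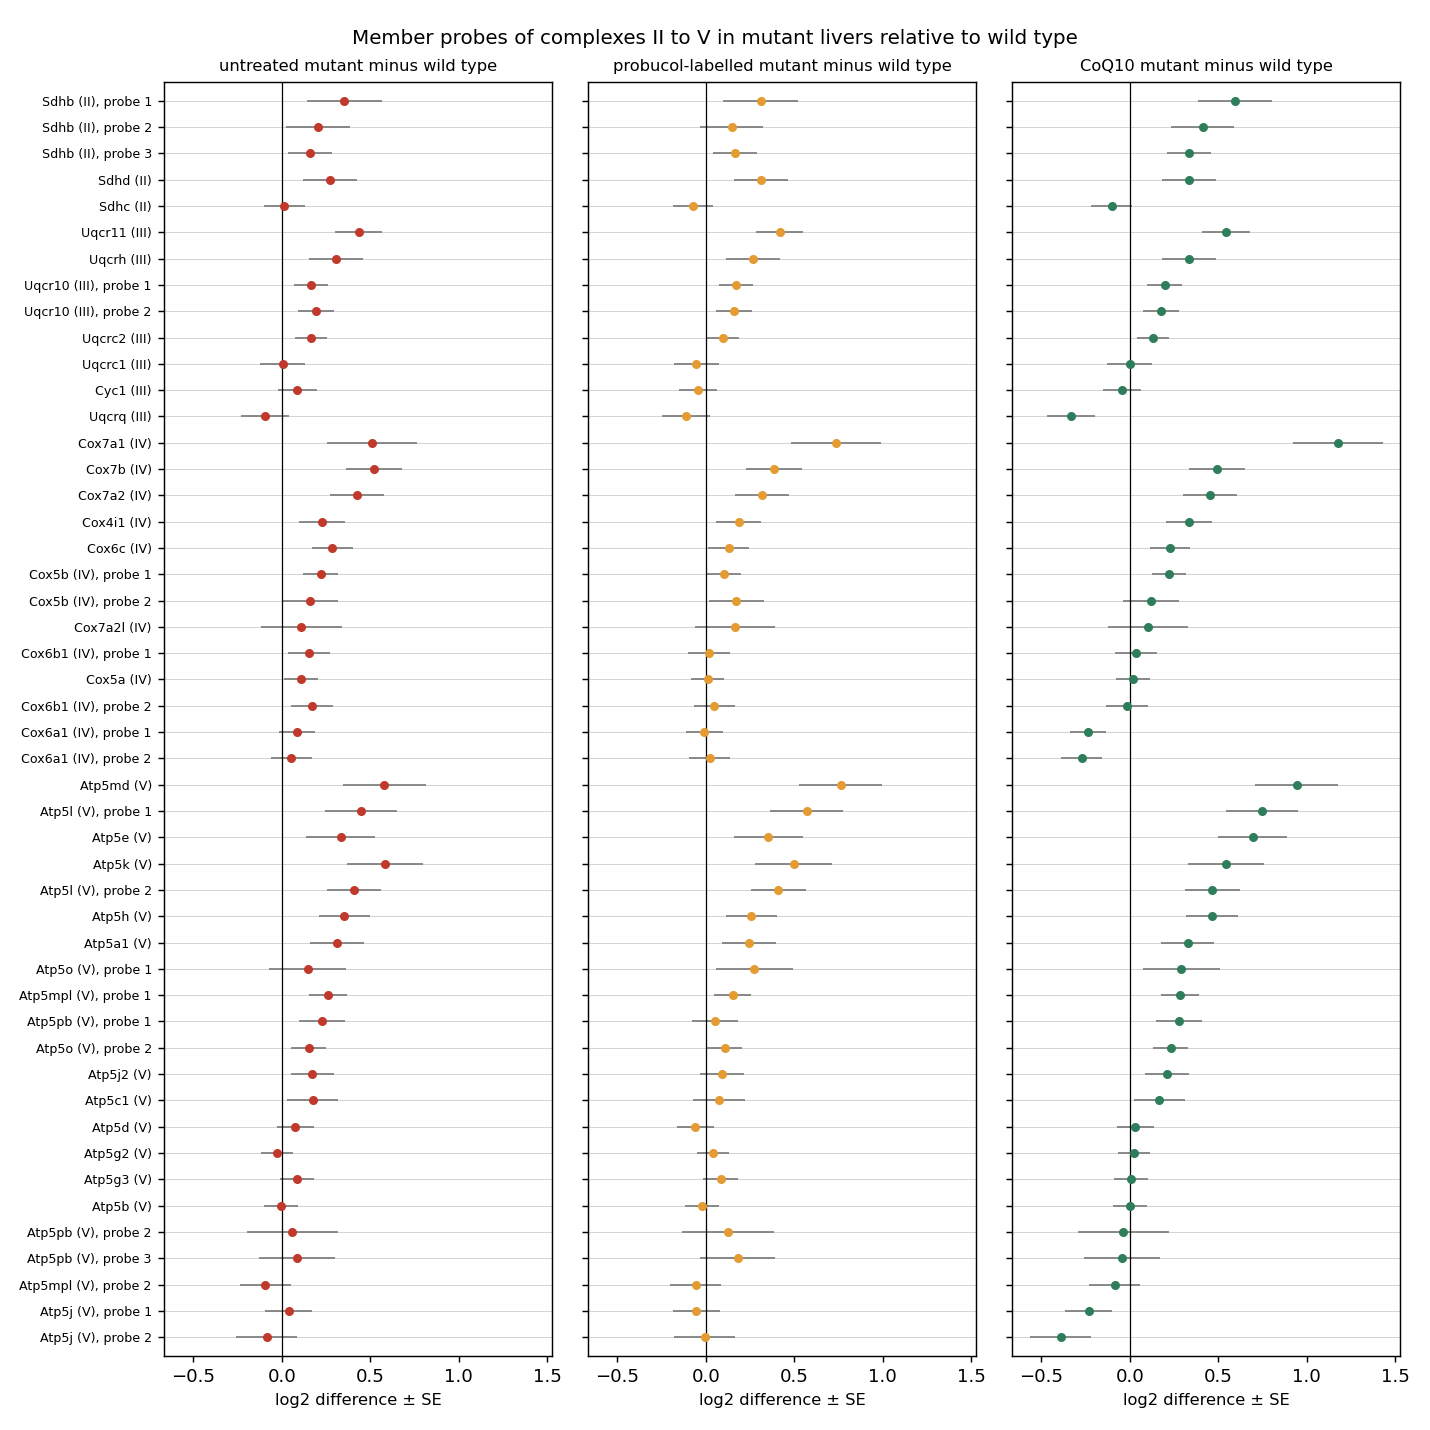
Log2 difference from wild type for the 48 kept member probes, ordered by complex, in 3 panels for untreated, probucol-labelled and CoQ10-labelled mutants. Points are differences and bars their standard errors. Probes above 0 number 43, 38 and 37, and Cox7a1 in the CoQ10 panel, at 1.17, is the only called probe.

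Promoters of the members were set beside these values. RefSeq held promoter entries for 33 of the 44 member genes (none for Atp5a1, Atp5mpl, Cox4i1, Cox4i2, Cox6a2, Cox6c, Cox8c, Cyc1, Sdhc, Uqcrc2 and Uqcrq), and these were searched on both strands, from 250 bases before to 50 after the start, for the palindromic site of NRF1, a regulator of mitochondrial genes, and for CCGGAAG, a site of ETS factors. AAGATGGCG for YY1, TCAAGGTCA for the estrogen-related receptors (ERR) and TATAAA for the TATA box were searched too. The ETS letters occurred in 12 of 33 member genes (36.4%), against 12.9% of 17492 coding genes and 8.86% of all promoters. The NRF1 site occurred in 10 (30.3%), against 7.17% of coding genes and 4.60% of promoters. YY1 letters occurred in 2 (6.06%) against 2.14% and 1.40%, ERR letters in 2 (6.06%) against 0.377% and 0.423%, and TATAAA in 4 (12.1%) against 14.8% and 13.6%. Member promoters held a median of 14 CpG pairs in the 250 bases before the start, against 6 over all promoters. The ETS, NRF1 and YY1 letters each contain a CpG, and the part of base composition in their shares was not tested.

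Over the brightest kept probe per gene, the 12 genes with the ETS letters had median differences of 0.32, 0.29 and 0.44 in untreated, probucol-labelled and CoQ10-labelled mutants, and the 16 genes without them 0.13, 0.10 and 0.14. For the NRF1 site the order was reversed, with 0.15, 0.09 and 0.17 in 9 genes that have them and 0.20, 0.17 and 0.22 in 19 that do not. These medians are descriptions with no test. The ETS letters also occur in the promoters of Cox6a1 and Atp5j, which differed by -0.24 and -0.23 from wild type under CoQ10. Cox7a1, Cox7b and Cox7a2, at 1.17, 0.49 and 0.45, lack the letters. Promoters of 3 members with the letters are shown, 2 of genes above and 1 below wild type under CoQ10, with matches in capitals.
Uqcr11: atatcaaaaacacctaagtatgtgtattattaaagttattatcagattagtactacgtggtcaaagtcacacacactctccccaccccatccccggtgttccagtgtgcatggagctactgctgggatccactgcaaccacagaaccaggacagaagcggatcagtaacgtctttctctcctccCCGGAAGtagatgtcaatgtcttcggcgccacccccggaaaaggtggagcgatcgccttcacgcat
Atp5e: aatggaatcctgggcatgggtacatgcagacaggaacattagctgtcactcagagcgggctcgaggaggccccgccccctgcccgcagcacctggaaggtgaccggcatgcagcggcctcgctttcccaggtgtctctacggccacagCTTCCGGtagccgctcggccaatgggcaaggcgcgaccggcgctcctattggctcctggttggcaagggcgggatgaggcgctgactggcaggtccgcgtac
Cox6a1: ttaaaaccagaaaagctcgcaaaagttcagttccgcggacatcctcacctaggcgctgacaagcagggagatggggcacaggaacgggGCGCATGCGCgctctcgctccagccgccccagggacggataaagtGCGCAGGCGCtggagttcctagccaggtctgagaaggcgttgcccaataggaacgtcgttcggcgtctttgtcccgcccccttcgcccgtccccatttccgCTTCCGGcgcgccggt
All 3 lie on the minus strand of GRCm38.p6, at chr10:80406822-80407071 for Uqcr11, chr2:174464102-174464351 for Atp5e and chr5:115348959-115349208 for Cox6a1, and each is the 250 bases before the start. The ETS letters begin 66 bases before the start on the strand of the gene in Uqcr11, and on the other strand 102 bases before it in Atp5e and 16 in Cox6a1. Cox6a1 also holds 2 matches to the NRF1 site, beginning 162 and 117 bases before the start, and no 2 matches overlap one another. A match shows that the letters are present and not that a factor binds there.

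Treated and untreated mutants did not differ in any called member. For probucol over untreated mutants 16 of 48 probes were higher, against 50.3% of all probes, with a median of -0.04 that was 0.02 under median scaling. In that comparison 0 members were called (0.0132% of all probes were) and 0 had an unadjusted p under 0.05 in either direction, where 2.87% of all probes were higher and 3.23% lower. Groups separated wholly in 0 members, against 0.397% of all probes higher and 0.51% lower. The smallest adjusted p was 0.959, and the member of smallest p was Cox6c at -0.15 ± 0.12 (95% interval -0.40 to 0.09). For CoQ10 over untreated mutants 25 of 48 were higher, against 50.8% of all probes, with a median of 0.00 and 0 called against 0.119% of all probes. At an unadjusted p under 0.05, Cox7a1 was above and both Cox6a1 probes were below untreated mutants, where 4.6% of all probes were higher and 4.78% lower. The brighter Cox6a1 probe lay wholly below and 0 members lay wholly above, against 0.967% and 0.715% of all probes. For probucol over CoQ10-labelled mutants 15 of 48 were higher, against 47.9% of all probes, with a median of -0.05 (0.04 under median scaling) and 0 called against 0.0464% of all probes. There, 3 probes were higher at an unadjusted p under 0.05, both of Cox6a1 and 1 of Atp5j at 0.38 ± 0.17 (adjusted p = 0.459), and 0 were lower, where 4.9% of all probes were higher and 5.05% lower. Groups separated wholly in 0 members, against 0.643% of all probes higher and 0.881% lower. A p above the threshold does not show that the groups had equal levels.

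By complex, complex II had the widest differences among the treatments, at -0.04 for probucol over untreated, 0.18 for CoQ10 over untreated and -0.17 for probucol over CoQ10 (medians of 5 probes, 3 of them Sdhb). With the brightest probe per gene the last was -0.020 and CoQ10 over untreated was 0.063, and within array numbers 1 to 4 CoQ10 over untreated was -0.16, 0.26, -0.15 and 0.39. The medians of complexes III, IV and V ranged from -0.10 to 0.02 in the same comparisons.

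Members varied together over the 20 livers. After group means were removed, 41 of 48 probes correlated above 0 with the mean of the other members, with a median r of 0.61. Probes of Cox5b (r = 0.91), Atp5l (0.90) and Uqcrh (0.87) followed it most closely, while Atp5d (-0.61), Uqcrq (-0.29) and Sdhc (-0.24) followed it least. With array number removed as well, the first set gave 0.86, 0.86 and 0.81. Atp5d then gave -0.41, Uqcrq -0.06 and Sdhc 0.25, so the sign for Sdhc depended on array number. No other set of probes is given beside the members here. The points are arrays that share normalisation and array numbers, so these values describe the arrays and carry no p.

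Other genes of the same machinery did not all share the offset from wild type. The 61 kept probes of Nduf genes, which are subunits of complex I, the NADH dehydrogenase, and some of its assembly factors such as Ndufaf4, gave medians of 0.17, 0.18 and 0.18 in untreated, probucol-labelled and CoQ10-labelled mutants, with 58, 49 and 55 above wild type and 1 called (Ndufb2 under CoQ10, 1.10 ± 0.23, adjusted p = 0.0319). The 46 probes of assembly factors of complexes II to V gave 0.09, 0.11 and 0.04, with 0 called. Subunits encoded by mitochondrial DNA, 8 probes, gave 0.04, -0.06 and -0.06, and 13 probes of mitochondrial mass markers such as citrate synthase, porins and import proteins gave 0.02, -0.04 and -0.06, with 0 called in both lists. Cytochrome c and its lyase, the electron transfer flavoprotein and its dehydrogenase, and accessory proteins of ATP synthase (13 probes of 6 genes in 1 list) gave -0.02, 0.01 and 0.07, and the adenine nucleotide and phosphate carriers (3 probes) gave 0.04, 0.03 and -0.04, with 0 called in either list. With median scaling in place of quantile normalisation some of these small medians changed sign: the mitochondrially encoded subunits gave 0.12, 0.04 and -0.02 and the mass markers 0.07, 0.05 and -0.04, while complexes II to V together gave 0.24, 0.28 and 0.26. The median of all kept probes under that scaling is not given here. A shift common to them is thus not taken out of these values.

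**Figure D4:**
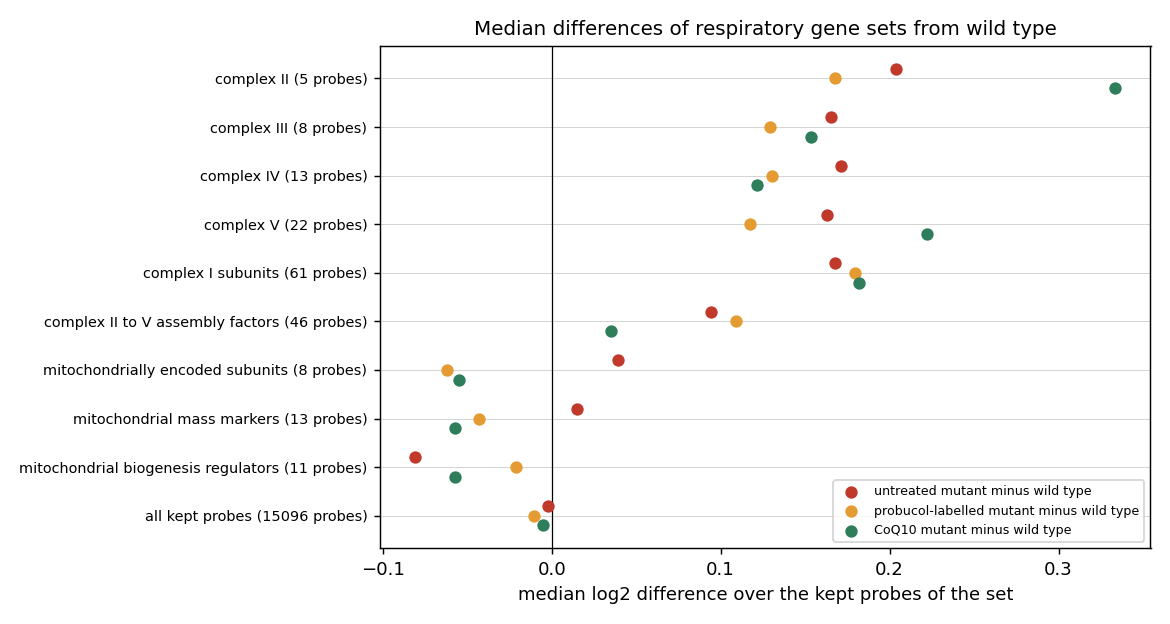
Median log2 difference from wild type of the kept probes of complexes II to V, of complex I (all Nduf genes, assembly factors included), assembly factors of complexes II to V, subunits encoded by mitochondrial DNA, mass markers and biogenesis regulators, and of all kept probes, for the 3 mutant groups. Complexes II to V lie at 0.12 to 0.33 and complex I at 0.17 to 0.18, whereas mass markers lie between -0.06 and 0.02.

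Among 11 probes of regulators of mitochondrial biogenesis, the median was -0.08, -0.02 and -0.06, and 1 coactivator was called lower against wild type. Ppargc1b, a coactivator of genes for oxidative metabolism, fell by 1.11 ± 0.24 under CoQ10 (adjusted p = 0.0425) and stood at -0.94 ± 0.24 under probucol (adjusted p = 0.0723). Ppargc1a, its relative that responds to fasting, fell by 1.10 ± 0.21 in CoQ10-labelled against untreated mutants (adjusted p = 0.0425) and stood at -0.88 ± 0.21 against wild type (adjusted p = 0.0658).

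Markers of Kupffer cells, the resident macrophages of the liver, also lay mostly above wild type in the mutant groups. All 13 kept probes of that list were above wild type in untreated mutants, 12 in probucol-labelled mutants and 13 in CoQ10-labelled mutants, with medians of 0.27, 0.27 and 0.43. Their mean level per liver ran from -0.25 to 0.27 in untreated, -0.16 to 0.11 in probucol-labelled, -0.01 to 0.38 in CoQ10-labelled and -0.43 to -0.11 in wild-type livers, and Cd5l was detected in 0 arrays. The liver at 0.38, CoQ10 replicate 5, had the lowest member mean of its group, at -0.09. The liver at 0.27, untreated replicate 4, had the highest member mean of its group, at 0.26. Cholangiocyte (bile duct cell) markers went the other way. Their level ran from 0.30 to 0.58 in wild-type, -0.46 to 0.10 in untreated, -0.53 to 0.00 in probucol-labelled and -0.45 to 0.40 in CoQ10-labelled livers. Only 2 of the 6 cholangiocyte genes were detected in at least 5 arrays. Among the 13 Kupffer cell probes, 2 of Folr2 gave 1.04 and 0.88 and 1 of C1qa gave 0.88 under CoQ10. These were picked after their values were seen and are given without standard errors. Hepatocyte markers gave medians of -0.00, 0.04 and -0.03 with 0 of 11 probes called. The part of these cells in the member differences was not tested.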

How the data were processed

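Total RNA of 20 livers was read on 20 Illumina arrays. The authors deposited a table of non-normalised probe intensity with a detection value per probe, given as a fraction that rises with intensity, so that 1 minus it was used as the detection p. The authors' deposited series matrix holds log2 values of the same arrays, which served as an alternative.

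Intensities were background-corrected by normexp from the detection values (offset 16), quantile-normalised and put on a log2 scale with limma 3.58.1 in R 4.3.3. Probes detected (p under 0.05) in at least 5 of 20 arrays were kept, 15096 of 45281. Symbols came from the platform annotation: 34885 probes had 1, 18 had several and 10378 had none, and probes with several were not named. One fit of 4 group means (lmFit, eBayes) gave 6 comparisons, adjusted by Benjamini-Hochberg over all kept probes, and was tested on simulated data. The number of arrays, 5 per group, limits the precision. Arrays came from separate mice per the labels.

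The members and gene lists were chosen with earlier results of these data known. Genes named are called members, the 2 of smallest p per complex and comparison, tissue isoforms, genes whose probes have opposite signs, the member nearest to a call, and the 3 that followed the other members most and least. Other genes are the 2 of smallest p per list and those a result turns on, chosen after their values were seen. Alternatives were background, scaling, filter, array number, array weights, replicate block, label prefix and each liver left out.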

Additional observations from a re-analysis of the deposited data

Results flagged for a closer look

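In 7 of 120 groups examined (26 member probes and 4 complex means, 5 livers each), 1 liver stood apart from the other 4 of its group by more than 0.71 of the group's whole range. Chance alone flags about 1 in 20 groups, or 6 of 120. Wild-type replicate 3 accounts for 4 of the 7. It read 14.52 for Cox6a1 (brighter probe), where the nearest wild-type liver read 14.26, and 14.09 for Atp5o, where the nearest read 13.94. It read 13.66 for Cox6c, below the nearest at 13.81, and its mean over complex IV was -0.03, against -0.17 in the nearest wild-type liver. The other 3 were in treated mutants. Cox7b in CoQ10 replicate 3 read 9.67, above the nearest at 9.06, and without that liver the Cox7b values of the group still lay above wild type. Atp5mpl in CoQ10 replicate 5 read 14.03, below the nearest at 14.50. Cox6a1 in probucol replicate 1 read 14.16, below the nearest at 14.29.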

How the results depend on the processing

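The count of members called for CoQ10 over wild type, 1 in the report, moved most. It was 8 with array number as a fixed block (316 of all probes called: Atp5e, Atp5h, both Atp5l probes, Atp5md, Cox7a1, Cox7b and Uqcr11), 5 with it as a random block (242), 8 with array weights (471), 5 with only the 2 groups compared (186), 3 with probes detected in all 20 arrays (130), 2 with no background correction (145), and 0 with the authors' log2 values (70), median scaling (9) or no filter (33). Leaving out each liver in turn gave 0 to 1 members for this comparison and 0 for the other 5. Only the 2 groups compared gave 1 for probucol over wild type (Atp5md), and leaving out untreated replicates 1 and 4 gave 2 for CoQ10 over untreated (Atp5e and Atp5md). With a replicate block the count for CoQ10 over wild type was 2 (Atp5l and Cox7a1). The complex medians could not change under that block, since each replicate number occurs once in each group. Same-numbered livers deviated together in 17 of 30 pairs only (r from -0.32 to 0.46), so the numbers were not taken as pairs. Single-gene alternatives were run for 49 pairs of member probe and comparison, those with an unadjusted p under 0.05 in the main fit. Of 1151 such alternatives, 1113 kept their side of the threshold, 11 lost a call (all Cox7a1 under CoQ10), 27 gained one and 0 changed sign. Since the pairs were picked by p in these same data, a kept sign was nearly fixed in advance and says little. Values within single array numbers were not among these alternatives. The causes were not tested.

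Medians within array numbers moved as follows. Untreated over wild type gave, for numbers 1 to 4, 0.54, -0.22, 0.82 and -0.063 in complex II; for numbers 1 to 3, 0.32, -0.075 and 0.44 in complex IV and 0.34, 0.0035 and 0.45 in complex V; and -0.0046 for number 2 in complex III. Probucol over wild type gave -0.14, 0.62 and -0.056 for numbers 2 to 4 in complex II, 0.29, -0.11 and 0.28 for numbers 1 to 3 in complex V, and -0.10 for number 2 in both complex III and complex IV. CoQ10 over wild type gave 0.038 and 0.77 for numbers 2 and 3 in complex II, 0.035 for number 2 in complex III, and 0.41 and 0.33 for number 3 in complexes IV and V. CoQ10 over untreated gave -0.16, -0.15 and 0.39 for numbers 1, 3 and 4 in complex II and -0.28 for number 1 in complex IV. Probucol over CoQ10 gave -0.013 and 0.076 for number 1 in complexes II and V and -0.17 for number 2 in complex III.

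Median scaling gave 0.30, 0.28 and 0.27 for probucol over wild type in complexes III, IV and V, 0.25 for untreated over wild type and 0.051 for probucol over untreated in complex III. With groups named by array name, probucol over untreated was 0.037 in complex III and 0.097 in complex IV, and without untreated replicates 1 and 4 it was 0.19 in complex II and 0.060 in complex IV. In complex II, probucol over CoQ10 was -0.020 with the brightest probe per gene and -0.021 with no filter, and in complex V CoQ10 over wild type was 0.095 with no filter.

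Leaving out each liver in turn gave these ranges. For untreated over wild type they were 0.09 to 0.29, 0.14 to 0.19, 0.15 to 0.23 and 0.13 to 0.21 in complexes II to V, for probucol over wild type 0.11 to 0.29, 0.10 to 0.16, 0.09 to 0.17 and 0.08 to 0.15, and for CoQ10 over wild type 0.30 to 0.39, 0.13 to 0.18, 0.03 to 0.21 and 0.19 to 0.26. For probucol over untreated they were -0.09 to 0.08, -0.08 to -0.02, -0.13 to -0.02 and -0.07 to 0.01, for CoQ10 over untreated 0.10 to 0.25, -0.04 to 0.03, -0.11 to 0.01 and -0.00 to 0.08, and for probucol over CoQ10 -0.21 to -0.10, -0.07 to -0.00, -0.11 to 0.00 and -0.12 to -0.01. Signal over background limits what can be said of 8 of the 44 member genes, Sdha and Uqcrfs1 among them, which had no kept probe.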
